A study of Mus musculus with 8 samples.

Results

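The postsynaptic density scaffolds examined here are the 9 genes Shank1, Shank2, Shank3, Dlg2, Dlg3, Dlg4, Dlgap1, Dlgap3 and Homer1. They were taken by symbol from the 22430 genes of the count table, after its Ensembl identifiers had been matched to the GENCODE mouse annotation, and all 9 passed the filter on low counts that left 16730 genes for testing. Poly(A) RNA of brain hemispheres was sequenced from 4 young-adult male C57Bl/6JRj mice of 6 months (6m) and 4 aged male C57Bl/6JRj mice of 24 months (24m). No transgene or treatment is named for either age, and each library came from 1 animal. The sample labels give the tissue as whole brain, whereas the protocol gives hemispheres. The question was how the messenger RNA of these scaffolds differs between the young-adult and the aged brain.

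The postsynaptic density is the protein-rich layer beneath the membrane of excitatory synapses, where glutamate receptors are held opposite the release sites of the presynaptic terminal. The scaffolds form stacked layers. Membrane-associated guanylate kinases of the Dlg family bind receptor tails and adhesion molecules through PDZ domains, Dlgap proteins (also called GKAP or SAPAP) bind the guanylate kinase domain of Dlg proteins, Shank proteins bind Dlgap proteins, and Homer proteins link Shank to metabotropic glutamate receptors and intracellular calcium channels. Dlg4 encodes PSD-95, Dlg2 encodes PSD-93 and Dlg3 encodes SAP102.

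Of the 9 scaffolds, 7 rose with age and none fell. A gene was called at an adjusted p (padj) of at most 0.05 in the quasi-likelihood test of edgeR and a log2 fold change (log2FC) of at least 0.58 in size. By that rule 25.3% of all tested genes were higher and 18.3% were lower at 24m. The median log2FC was 1.79 over the 9 scaffolds and -0.0034 over all tested genes. Dlg2 rose most, to 5.94 times its 6m level, followed by Shank1 at 4.61 times. All of the Shank genes, Dlg3, Dlgap1 and Homer1 also rose, Dlgap3 passed the padj threshold without reaching the fold threshold, which makes 8 of 9 higher by padj alone, against 32.7% of all tested genes (29.9% were lower by padj alone), and Dlg4, the most abundant member, passed neither. Transcript length moved with these values. The 4170 tested genes with the shortest canonical transcripts had a median log2FC of -0.56 and the 4169 with the longest one of 0.65, and the latter include 8 of the 9 scaffolds (all but Dlgap3). With the trend over canonical length removed, a setting added after the data were seen, the median of the 9 was 1.00 and 6 were called higher, against 17.8% of all tested genes in that setting. The part of length in the scaffold results was not tested further.

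**Figure D1:**
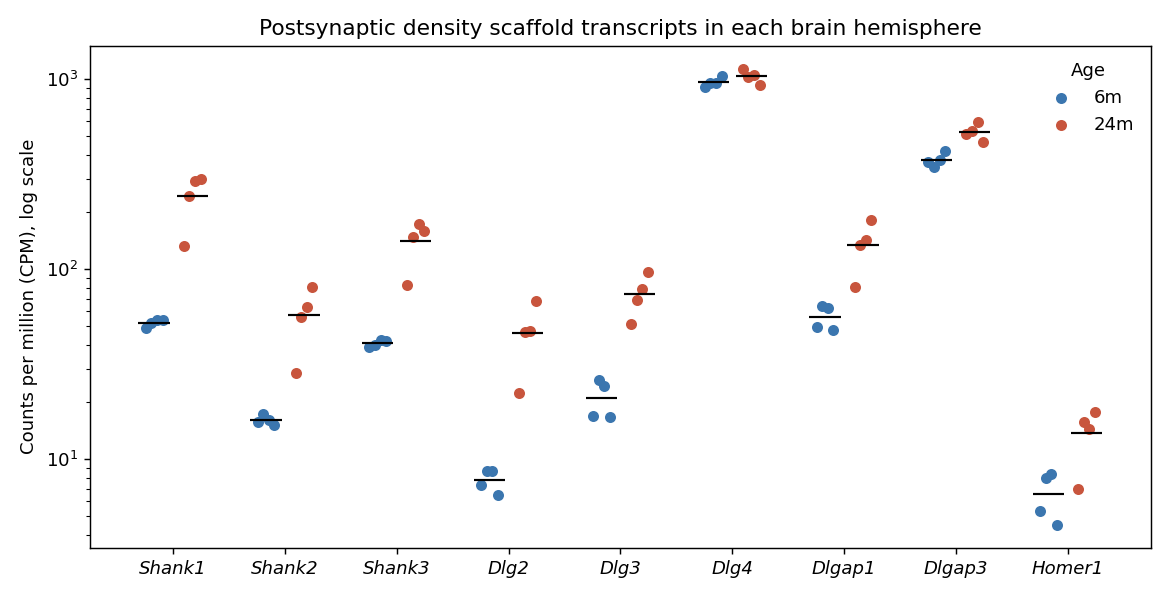
Normalised expression of each scaffold in the 8 libraries, in counts scaled to library size (CPM) on a log axis. Points are single animals, in replicate order from left to right within an age, and black lines are means of 4. The 24m points of Shank1 (131.9 to 299.9 CPM) lie above its 6m points (49.2 to 54.0 CPM), while those of Dlg4 overlap (936 to 1136 against 912 to 1044 CPM).

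Library totals ran from 63460940 to 103462414 counts, with 24m replicate 1 the deepest. The scarcest member, Homer1, still had several CPM in every library. Mitochondrially encoded transcripts took 5.261% to 6.523% of counts at 6m and 3.181% to 3.69% at 24m, so the ages were fully separated on this measure, and its part in the results was not tested. In bulk tissue, fewer cells of a type and less RNA per cell cannot be told apart, and likewise for more.

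The 9 genes lie on 7 chromosomes of GRCm39, all on the forward strand. Shank1 (ENSMUSG00000038738, chr7:43959615-44009996), Shank2 (ENSMUSG00000037541, chr7:143532669-143979779) and Dlg2 (ENSMUSG00000052572, chr7:90125880-92098455) share chromosome 7. Shank3 is at chr15:89383826-89444464 (ENSMUSG00000022623), Dlg3 at chrX:99810768-99862016 (ENSMUSG00000000881) and Dlg4 at chr11:69907768-69938348 (ENSMUSG00000020886). Dlgap1 is at chr17:70275873-71128409 (ENSMUSG00000003279), Dlgap3 at chr4:127062750-127130847 (ENSMUSG00000042388) and Homer1 at chr13:93436143-93541637 (ENSMUSG00000007617). Their spans run from 30.6 kb for Dlg4 to 1972.6 kb for Dlg2, and canonical transcripts from 4163 bases for Dlgap3 to 10536 bases for Shank2. The GC content of the exons ranged from 39.28% for Homer1 to 62.33% for Shank3. Exons of a gene on the opposite strand overlap exons of Shank1, Shank2, Shank3, Dlgap1, Dlgap3 and Homer1, and exons of 2 genes on the same strand overlap those of Dlg2. Whether the authors' counting used strand was not stated, so reads in these overlaps may belong to either gene.

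Promoter sequence was available in the RefSeq set (windows of 250 bases before to 50 bases after a start, table build GRCm38.p6) for 7 of the 9 scaffolds, as 14 windows, each of which matched a single place in GRCm39. Shank1 and Shank2 have no entry. Both strands were searched for the GC box GGGCGG, the core of the cyclic AMP response element (CRE) TGACG, and the TATA box TATAAA. The GC box was in 3 of the 14 windows, against 35.7% of 32851 windows of all genes, and the CRE core in 3 of the 14, against 20.8%. The TATA box was in 1 window, of Dlg2, against 13.6%. The 8-base CRE was in none of the 14 and in 1.8% of all windows. A match is a description of the letters only. The stretches below were chosen because Homer1 and Dlg4 stand at opposite ends of abundance among the 9 and differ in their change with age, and Shank3 and Dlg3 hold the other windows with GC boxes or CRE cores. Capitals mark the motif or its reverse complement, distances are from its left end, and all are written 5′ to 3′ on the forward strand of GRCm39. Each distance is to the start of its own window, and the windows of a gene are numbered along the forward strand. The Dlg3 CRE core is in window 1 and the Dlg3 GC box in window 2, which have different starts. Both Dlg4 stretches are in window 3 of that gene.
Homer1, CRE core 56 bases before the start, chr13:93440197-93440226: ccccgcacaagcTGACGtgagcggagggtg
Homer1, CRE core 40 bases before the start, chr13:93440213-93440242: gtgagcggagggTGACGtatgtgcggagag
Homer1, CRE core 14 bases before the start, chr13:93440239-93440268: agaggagcgcgcTGACGttgctatttaaag
Dlg4, CRE core 76 bases before the start, chr11:69914720-69914749: tctctcccatcaTGACGctctcccgtactg
Dlg4, GC box 50 bases before the start, chr11:69914746-69914775: actgcgcaggcgCCGCCCcccctttccctg
Dlg3, CRE core 78 bases before the start, chrX:99818011-99818040: gacgattaccgcCGTCAgggggagtgccaa
Dlg3, GC box 105 bases before the start, chrX:99820760-99820789: cagccgtacgccCCGCCCtctgacccaggc
Shank3, GC box 163 bases before the start, chr15:89383636-89383665: ggcccccggcccCCGCCCtctgcaccacac

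Among the membrane-proximal Dlg scaffolds, Dlg2 and Dlg3 rose and Dlg4 did not pass the test. Dlg2 was at 7.35, 8.61, 8.63 and 6.45 CPM at 6m and at 22.3, 46.7, 47.1 and 68.2 CPM at 24m, with libraries here and throughout given in the order of their replicate numbers. The lowest aged library was thus well above the highest young-adult one. Its log2FC was 2.57 ± 0.29 (SE, n = 4 per age, edgeR padj = 0.000117). PSD-93, its product, anchors NMDA receptors and potassium channels at the synapse.

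Dlg3 encodes SAP102, a scaffold of NMDA receptors known from immature synapses. It was at 16.8, 26.1, 24.4 and 16.6 CPM at 6m and at 51.7, 69.2, 78.9 and 97.1 CPM at 24m. No library of one age reached the range of the other. The log2FC was 1.82 ± 0.22 (SE, n = 4 per age, edgeR padj = 0.000145).

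Dlg4 encodes PSD-95, the main Dlg scaffold of mature excitatory synapses. It was at 912, 956, 953 and 1044 CPM at 6m and at 1136, 1032, 1054 and 936 CPM at 24m. The ages overlapped, since 24m replicate 4 was below 3 of the 4 young-adult libraries and 6m replicate 4 was above 24m replicate 2. The log2FC was 0.11 ± 0.09 (SE, n = 4 per age, edgeR padj = 0.332), and the 95% confidence interval of the fold change ran from 0.935 to 1.24. A change of the size seen in Dlg2 or Dlg3 lies outside that interval. The sign of the Dlg4 change depended on the processing. It was -0.36 (padj = 0.0756) after a length trend was removed from the counts and -0.31 (padj = 0.0353) after length and GC trends were removed. It was 0.32 (padj = 0.00198) with library totals as the only scaling, and 0.45 (padj = 1.3e-12) with DESeq2 on quantile-normalized counts. No setting took it past the fold threshold.

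Of the Dlgap scaffolds, which bridge the Dlg and Shank layers, Dlgap1 was called higher and Dlgap3 was not. The test of their ratio, given below, did not pass. Dlgap1 was at 49.5, 64.0, 62.2 and 47.9 CPM at 6m and at 80.7, 134, 143 and 181 CPM at 24m, with every aged library above every young-adult one. The log2FC was 1.27 ± 0.22 (SE, n = 4 per age, edgeR padj = 0.000881).

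Dlgap3, a Dlgap scaffold known for its expression in the striatum, was at 365, 347, 378 and 421 CPM at 6m and at 514, 534, 592 and 468 CPM at 24m. The ages did not overlap here either. Its log2FC of 0.48 ± 0.10 (SE, n = 4 per age, edgeR padj = 0.00225) passed the padj threshold and stayed under the fold threshold. It crossed the fold threshold with library totals as the only scaling (0.70), after removal of a GC trend (0.73) and with DESeq2 on quantile-normalized counts (0.79), and was 0.21 (padj = 0.138) after removal of a length trend.

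All of the Shank genes, which encode the deep layer that ties Dlgap proteins to Homer and the actin cytoskeleton, rose with age. Shank1 was at 49.2, 52.1, 54.0 and 53.9 CPM at 6m and at 131.9, 242, 292 and 299.9 CPM at 24m. The log2FC was 2.21 ± 0.23 (SE, 95% confidence interval 1.70 to 2.71, edgeR padj = 7.0e-05). Even its lowest aged library exceeded every young-adult library.

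Shank2 was at 15.7, 17.3, 16.0 and 15.1 CPM at 6m and at 28.3, 55.8, 63.5 and 81.0 CPM at 24m, a log2FC of 1.83 ± 0.26 (SE, edgeR padj = 0.000354). Shank3, whose human counterpart is disrupted in Phelan-McDermid syndrome, was at 38.8, 39.9, 42.2 and 41.9 CPM at 6m. At 24m it was at 82.4, 148, 173 and 159 CPM, a log2FC of 1.79 ± 0.20 (SE, edgeR padj = 0.000105). Neither gene overlapped between ages. In all of the Shank genes the young-adult libraries lay close together, while the aged libraries were spread more widely. For Shank1 the coefficient of variation was 4.249% at 6m and 32.04% at 24m. Replicate 1 of 24m was the lowest aged library in all of the Shank genes and took a large part in that spread. The contrast was not limited to the Shank genes. Dlg2 had 13.67% at 6m and 40.8% at 24m, whereas Dlg3 had 23.74% and 25.54%.

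Homer1 encodes long scaffold forms and the short activity-induced form Homer1a, which lacks the coiled coil and uncouples the long forms. Counts per gene do not separate these forms. Homer1 was at 5.37, 7.96, 8.33 and 4.51 CPM at 6m and at 6.99, 15.7, 14.4 and 17.7 CPM at 24m. Replicate 1 of 24m was inside the young-adult range, and the other aged libraries were above it. The log2FC was 1.07 ± 0.29 (SE, n = 4 per age, edgeR padj = 0.0103). Without 24m replicate 1 it was 1.30 (padj = 0.000176), and Homer1 was no longer called after removal of a length trend (0.58, padj = 0.0376, under the fold threshold before rounding).

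**Figure D2:**
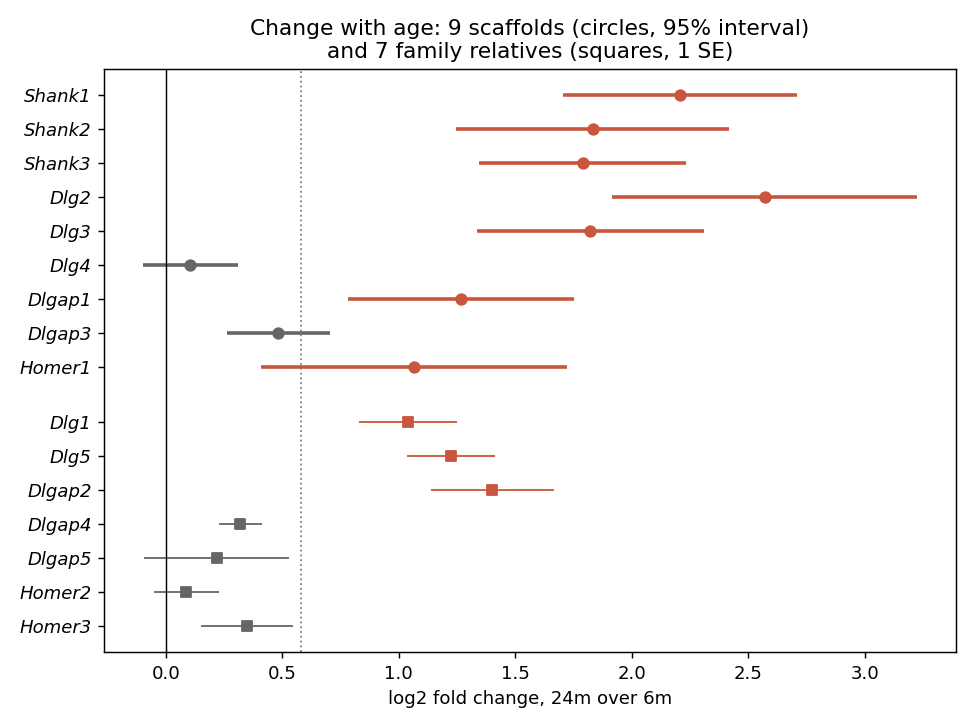
log2 fold change of the 9 scaffolds (circles, bars are 95% confidence intervals) and of their 7 family relatives (squares, bars are 1 SE). Red marks genes called higher at 24m, grey marks genes that were not called, and the dotted line is the fold threshold of 0.58. The interval of Dlg4 crosses 0, and those of Shank1 and Dlg2 lie above 1.

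Between them, 7 of the 9 scaffolds had every aged library above every young-adult library, an order that 28.4% of all tested genes also showed. The reverse order, shown by 26.8% of tested genes, was seen in none of the 9. Replicate 1 of 24m had the lowest value of its age in 7 members, the exceptions being Dlg4 and Dlgap3. In that library Shank1 was 1.33 above the 6m mean on the log2 CPM scale, against 2.40 for the mean of the other aged libraries, and Shank2 was 0.82 above it against 2.04. For Dlg2 the values were 1.53 and 2.78. This library was also the deepest. The same 7 scaffolds were called higher in each of the 8 fits that left out 1 library, beside 23.0% to 28.2% of all tested genes. The median log2FC of the 9 members lay between 1.62 and 1.98 in these fits.

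The abundance order was compared as CPM per kilobase of the canonical transcript. At 6m Dlg4 stood first with 176.6 ± 10.1 CPM per kb (SD, n = 4), followed by Dlgap3 with 90.7 ± 7.52 CPM per kb. Dlgap1 was next with 10.4 CPM per kb. The ranges of Shank3 (5.53) and Shank1 (5.29) overlapped, although Shank1 was the lower of the pair within each library. Dlg3 stood at 3.79, and Shank2 (1.52), Homer1 (1.17) and Dlg2 (1.04) overlapped in turn with their neighbours. At 24m Dlg4 (189.9 CPM per kb) and Dlgap3 (126.7) kept the first places. Dlgap1 (24.98), Shank1 (24.4), Shank3 (19.1) and Dlg3 (13.4) formed a run in which each overlapped with its neighbour. Dlg3 did not overlap with Dlg2 (6.15), which opened another such run with Shank2 (5.42) and Homer1 (2.45). With the union of all exons as the length, Dlgap1 fell to place 6 at both ages, while Dlg4 and Dlgap3 stayed in places 1 and 2. Shank1 then stood in place 3 and Shank3 in place 4 at both ages, so their order at 6m depended on the length used.

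Within the Dlg and Shank families some pairs of scaffolds changed by unequal amounts, while other pairs, among them the Dlgap pair, did not pass. Ratios of members within a library, which do not depend on library scaling, were compared between ages by an exact two-sided permutation test over the 70 assignments of the libraries, whose smallest p is 0.0286. The 7 pairs were adjusted together. The Dlg4 to Dlg2 ratio, per kilobase, went from 171 at 6m to 33.2 at 24m, a log2 difference of -2.37 (exact p = 0.0286, adjusted p = 0.05). The 6m libraries held ratios of 169.4, 151.4, 150.8 and 221 and the 24m libraries of 69.8, 30.2, 30.6 and 18.8, without overlap. The Dlg4 to Dlg3 ratio went from 47.5 to 14.5, a log2 difference of -1.71 (exact p = 0.0286, adjusted p = 0.05).

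In these 2 ratios and in the Shank1 ratios below, each exact p was the smallest the test allows, and with 4 of the 7 pairs at that value the adjusted p of each was equal to the threshold of 0.05. Shank1 gained on Shank3, with ratios of 0.946, 0.972, 0.953 and 0.959 at 6m and 1.19, 1.22, 1.26 and 1.40 at 24m (log2 difference 0.40, exact p = 0.0286, adjusted p = 0.05). Shank1 also gained on Shank2, by 0.40 (exact p = 0.0286, adjusted p = 0.05). The Shank3 to Shank2 ratio was 3.63 at both ages and its ages overlapped (exact p = 1, adjusted p = 1), with 24m values from 2.81 to 4.17.

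The Dlg3 to Dlg2 ratio was 3.59 at 6m and 2.29 at 24m, a log2 difference of -0.65 that did not pass (exact p = 0.0571, adjusted p = 0.08). Nor did the Dlgap3 to Dlgap1 ratio, at 8.79 and 5.26 (log2 difference -0.74, exact p = 0.0857, adjusted p = 0.1). With length, GC or both trends removed, the latter difference was -0.41, -0.31 and -0.40, and that of Dlg3 to Dlg2 was -0.25, -0.36 and -0.14. With the canonical length trend removed, the differences were -0.54 for Dlgap3 to Dlgap1 and -0.55 for Dlg3 to Dlg2. In both ratios, 24m replicate 1 lay inside the young-adult range.

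**Figure D3:**
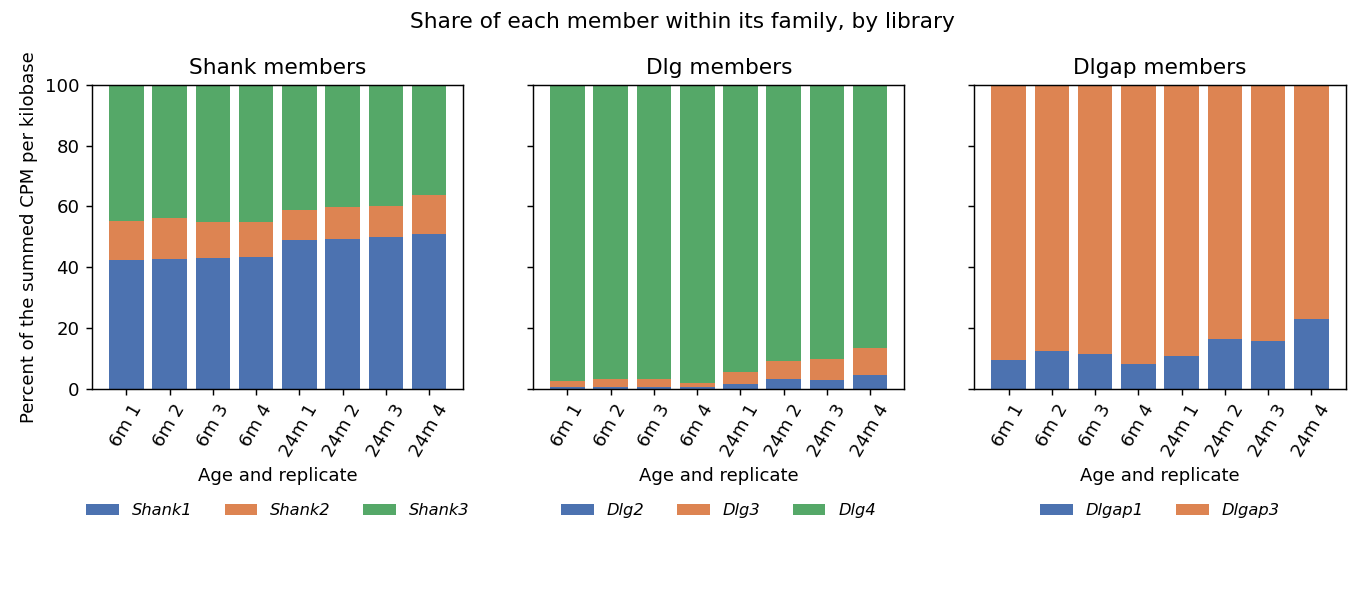
Percent of the summed CPM per kb that each scaffold took within its family, by library. Bars are the 8 libraries, labelled by age and replicate. Dlg4 takes 96.8% to 98.0% of the Dlg sum at 6m and 86.5% to 94.4% at 24m, while Shank1 moves from 42.4% to 43.4% at 6m to 49.0% to 50.9% at 24m.

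As shares of the summed CPM per kb of the family members examined, Dlg4 held 97.3% ± 0.601 (SD, n = 4) at 6m and 90.6% ± 3.22 at 24m. Dlg3 went from 2.09% to 6.45% and Dlg2 from 0.574% to 2.98%. The Shank sum was held mainly by Shank3 (44.8% at 6m, 39.4% at 24m) and Shank1 (42.9% at 6m, 49.7% at 24m), and Shank2 was at 12.4% and 10.9%. Dlgap1 held 10.3% of the pair with Dlgap3 at 6m and 16.4% at 24m.

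The labelled tissue was checked against markers, whose counts stand beside the 25.3% of all tested genes that were higher and the 18.3% that were lower. No gene was at 0 in the lists of neuronal, astrocyte, microglial, oligodendrocyte and endothelial markers. Of 12 neuronal markers 4 rose and 1 fell, the median log2FC was 0.29, and summed levels were 5020 to 5482 CPM at 6m and 5717 to 6043 CPM at 24m. The summed levels did not overlap between ages. Of 8 astrocyte markers 5 were higher and 1 lower (summed 2892 to 3826 CPM at 6m, 2847 to 3844 CPM at 24m), and of 8 microglial markers 3 were higher and none lower (453.7 to 481.9 CPM, 465.1 to 633.9 CPM). Oligodendrocyte markers had 1 of 8 higher and none lower (3426 to 4286 CPM, 3705 to 4282 CPM), and endothelial markers 1 of 8 higher and 3 lower (90.2 to 131.5 CPM, 56.5 to 80.7 CPM). Without 24m replicate 4 no neuronal marker was called lower, and 2 endothelial markers were higher when replicate 1 or 2 of either age was left out. The part of these markers in the scaffold results was not tested.

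Markers of brain regions were counted in the same way, beside the 25.3% of all tested genes that were higher. Of 6 cortical and hippocampal markers 5 were higher and none lower (summed 104.6 to 125.6 CPM at 6m, 151.3 to 282.8 CPM at 24m), of 6 striatal markers 2 were higher and none lower (712 to 830.0 CPM, 579.4 to 814.1 CPM), and of 6 cerebellar markers 4 were higher and none lower (324.7 to 590.8 CPM, 389.8 to 602.4 CPM). The summed striatal and cerebellar levels overlapped between ages, and the striatal median log2FC was 0.05. The cerebellar count was 2 without 6m replicate 3, and 3 higher and 1 lower without 24m replicate 1. Whether hemispheres of the 2 ages held the regions in different proportions was not tested.

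Set against the mean log2 CPM of the 12 neuronal markers in the same library, 6 scaffolds were still higher at 24m, with no overlap between ages. The share of all tested genes in that order on this scale was not counted, so whether 6 of 9 is unusual cannot be told. The log2 differences were 1.96 for Dlg2, 1.63 for Shank1, 1.31 for Dlg3, 1.23 for Shank2, 1.23 for Shank3 and 0.71 for Dlgap1 (each exact permutation p = 0.0286, two-sided, adjusted p = 0.0429 over the 9). Homer1 differed by 0.52 (exact p = 0.114, adjusted p = 0.129). Dlgap3 differed by -0.03 (exact p = 0.886, adjusted p = 0.886), and Dlg4 by -0.40 (exact p = 0.0857, adjusted p = 0.11). Against the median of the markers in place of their mean, Homer1 differed by 0.81 and Dlg4 by -0.12, again without passing (exact permutation, adjusted p = 0.0735 and 0.629).

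Of the 7 other genes of the same families, 3 were called higher and none lower, against 25.3% of all tested genes higher. With the canonical length trend removed, 1 of the 7 was called higher, no more than the 17.8% of all tested genes. Dlgap2 rose from 9.70 to 25.6 CPM (log2FC 1.40 ± 0.27, SE, edgeR padj = 0.00149), Dlg5 from 13.3 to 31.1 CPM (1.22 ± 0.19, padj = 0.000498) and Dlg1, which encodes SAP97, from 25.7 to 52.8 CPM (1.04 ± 0.21, padj = 0.00207). Dlgap4 passed the padj threshold alone (0.32 ± 0.09, padj = 0.0124). Homer2, at 8.95 CPM at 6m and 9.52 CPM at 24m, and Homer3, at 99.3 and 126.4 CPM, did not pass (log2FC 0.09 and 0.35, padj = 0.596 and 0.15). Dlgap5, which acts in the mitotic spindle, was under 1 CPM at both ages (log2FC 0.22, padj = 0.559).

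Of 30 partners of the scaffolds, the enzymes, adaptors and cytoskeletal proteins bound to them, 18 rose and 3 fell, against 25.3% and 18.3% of all tested genes, and the median log2FC was 0.88. Nos1, neuronal nitric oxide synthase, which binds the PDZ domains of Dlg4, rose from 3.88 to 32.2 CPM (log2FC 3.05, edgeR padj = 6.89e-05). Ppp1r9a (neurabin, an actin-binding scaffold) had a log2FC of 2.74 and Abi2 (an adaptor of the actin-regulating WAVE complex) one of 2.32. At the other end Lin7b, an adaptor with a PDZ domain, fell by 1.13 on the log2 scale (padj = 0.000309) and Dynll1, a dynein light chain that binds Dlgap proteins, fell by 0.96 (padj = 0.000124). With the trend over canonical transcript length removed, a setting added after the data were seen, 6 of the 30 partners were called higher, a share near the 17.8% of all tested genes in that setting.

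Of 16 glutamate receptor and auxiliary subunit genes 8 were higher and 1 lower (median log2FC 0.62), against 25.3% and 18.3% of all tested genes. With the canonical length trend removed, 5 were higher and 2 lower, against 17.8% of all tested genes higher and 2506 of 16730 lower. Grm5, the metabotropic receptor that binds Homer proteins, rose from 1.67 to 19.3 CPM (log2FC 3.53, edgeR padj = 0.000425), and the NMDA receptor subunit gene Grin2a and AMPA receptor subunit gene Gria3 rose by 2.22 and 1.78. Cacng2 (stargazin, which links AMPA receptors to PSD-95) fell by 0.59 (padj = 0.00132). That call was lost in several other settings, among them no filter and the fits that left out replicate 1 of either age or replicate 4 of 6m. Cacng3, of the same family, had a log2FC of -0.26 (padj = 0.0387), under the fold threshold.

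Of 13 postsynaptic adhesion genes 9 were higher and none lower (median log2FC 0.91), against 25.3% and 18.3% of all tested genes. Epha4 (2.82), Nlgn1 (1.62) and Lrrtm2 (1.41) had the highest values. The lowest values were those of Lrrtm3 (log2FC -0.15, edgeR padj = 0.278) and Lrrtm1 (-0.05, padj = 0.741). Removal of the canonical length trend left 3 of the 13 higher, against 17.8% of all tested genes.

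Genes of the inhibitory postsynapse, which has other scaffolds, were included for comparison. Of 12, 8 were higher and none lower (median log2FC 1.04), against 25.3% and 18.3% of all tested genes. With the canonical length trend removed, 7 were higher and 1 lower, against 17.8% of all tested genes higher. Iqsec3, a guanine nucleotide exchange factor bound to gephyrin, rose from 28.5 to 124.9 CPM (log2FC 2.13, edgeR padj = 7.13e-05). Insyn1 was at -0.47 (edgeR padj = 0.00426, under the fold threshold) and Clptm1 at -0.04 (padj = 0.724).

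Immediate early genes, whose transcripts follow recent neuronal activity, are of interest beside Homer1 because its short form is one of them. Of 10, 3 were higher and none lower (median log2FC 0.36), a share close to the 25.3% of all tested genes. The count ranged from 2 to 5 when 1 library was left out. It was 5 without 24m replicate 1, 3 without 6m replicate 4 and 2 without any other library. Fosb (log2FC 1.32, edgeR padj = 0.000556) and Arc (1.19, padj = 0.00277) rose. Egr2, next in fold change, did not pass (0.83, padj = 0.142), and Junb (-0.16, padj = 0.256) and Ier2 (-0.33, padj = 0.0286, under the fold threshold) had the lowest values.

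Across the 8 libraries, the mean profile of the 9 scaffolds, as log2 CPM centred on each gene's mean, was -0.83, -0.60, -0.59 and -0.82 at 6m and 0.12, 0.78, 0.90 and 1.03 at 24m. Dlgap1 was the member nearest to it, with a root mean square difference of 0.129, and Dlg4 the farthest at 0.733. Of the 13914 other genes whose mean reached 1 CPM, the 5 with the smallest root mean square difference were Ncan (0.0549), Sh3pxd2a (0.0655), Arel1 (0.0657), Sobp (0.0679) and Plekha6 (0.0702). Their log2FC values lay between 1.43 for Ncan and 1.52 for Plekha6. Likeness here covers both the shape and the size of the change over the same 8 libraries, which share depth and scaling. The profiles were centred and not scaled, so a gene of like shape and other size would not be picked.

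**Figure D4:**
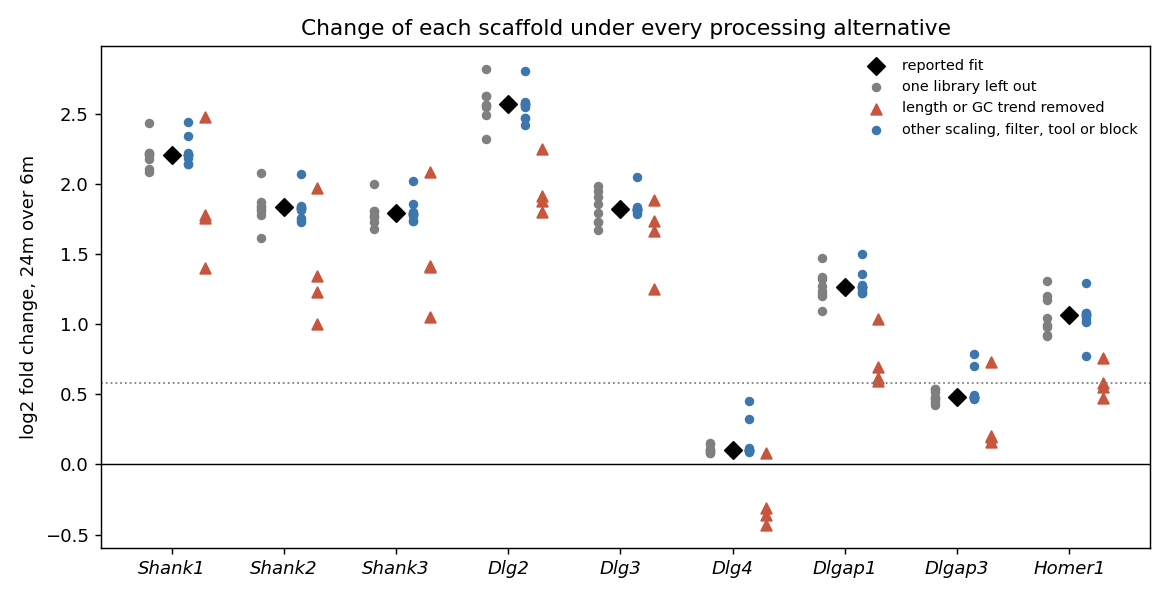
log2 fold change of each scaffold in the reported fit (black diamonds) and in the alternatives, grouped as fits without 1 library (grey circles, left), removal of length or GC trends (red triangles, right) and other scalings, filters, tools or the replicate block (blue circles). The dotted line is the fold threshold of 0.58. Values of Shank1, Shank2, Shank3, Dlg2, Dlg3 and Dlgap1 are above it in every alternative, from 0.60 for Dlgap1 upward, and Dlg4 ranges from -0.43 to 0.45.

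The calls of Shank1, Shank2, Shank3, Dlg2, Dlg3 and Dlgap1 were kept in all 22 alternatives tried. Among these, the reported fit without the fold threshold could not remove a call. The size of the changes was not kept. With the trend over exonic length removed, Shank1 was at 1.76, Dlg2 at 1.91, Shank2 at 1.23 and Dlgap1 at 0.61 on the log2FC scale, and with the trend over canonical length removed Shank1 was at 1.40, Dlg2 at 1.80, Shank2 at 1.00 and Dlgap1 at 0.70. Whether the trend over length arose in the tissue or in the preparation of the libraries was not tested.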

How the data were processed

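Brain hemispheres of 4 male mice of 6 months and 4 of 24 months were profiled by directional poly(A) RNA sequencing. The authors trimmed reads with Trim Galore 0.4.11, aligned them to GRCm39 with HISAT2 2.1.0 (versions per the submitters' processing notes) and counted them per Ensembl gene with featureCounts. The deposited values are raw counts per gene and library, with no replicates pooled. Strand and multimapping settings were not stated.

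Here 22281 of the 22430 listed genes were matched by identifier to the GENCODE annotation of GRCm39, a later release than the authors used. A gene entered the test when 4 or more libraries each held over 5 of its counts, which left 16730. Ages were compared by edgeR 4.0.16 (quasi-likelihood, run in R 4.3.3) with TMM scaling and no covariate. Calls needed padj (Benjamini-Hochberg) no higher than 0.05 together with an absolute log2 fold change of 0.58 or above. CPM values were scaled by the TMM factors, log2 CPM used a prior count of 2, and each SE was derived from the F statistic. Replicates differed beyond sampling noise in a chi-square comparison, so each library counted as 1. Ratios and levels relative to neuronal markers were compared by exact permutation over 70 splits. Alternatives were other scalings, filters, DESeq2 1.42.0, limma-voom (limma 3.58.1), each library left out, the replicate number as a block, thinning, and removal of length and GC trends. Tested on simulated data for 24m against 6m with 16730 genes, edgeR recovered 138 of 200 genes changed by a log2 value of 1, with 7 false calls. The simulation changed only those 200 genes and gave each gene the same spread at both ages. In the real data 25.3% of tested genes were called higher, so the false calls need not carry over.

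The scaffolds, gene lists, pairs and naming rule were chosen with earlier results of these data known. All scaffolds and family relatives were named, and from each list of synaptic and immediate early genes the 3 largest and 2 smallest log2 fold changes among genes averaging 1 CPM or above, together with the 5 genes most like the scaffolds. For the markers of cell types and regions, counts and summed levels are given in place of single genes. In the list of the inhibitory postsynapse, 2 genes that this rule names are not reported here.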

Additional observations from a re-analysis of the deposited data

Results flagged for a closer look

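Homer1 relative to the neuronal markers in the aged brain was picked out because 1 of the 4 animals, 24m replicate 1, stood apart. Its gap to the nearest other library was 0.861 of the whole range of the group, above Dixon's 95% critical value for 4 samples. This was 1 of 50 groups examined, and chance gives about 1 in 20.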

How the results depend on the processing

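The numbers called among the 9 scaffolds were 6 to 8 higher and 0 lower in every alternative. Over the alternatives, 17.8% to 32.7% of all tested genes were called higher and 10.4% to 29.9% lower. Shank1, Shank2, Shank3, Dlg2, Dlg3 and Dlgap1 were called in each, though the setting without the fold threshold could not remove a call. The median log2 fold change of the 9 was 1.2272 with the length trend removed, 1.3422 with length and GC trends removed, and 1.0003 with the canonical length trend removed (added after the data were seen). In the same settings Dlg4 was at -0.358 (padj = 0.0756), -0.3112 (padj = 0.0353) and -0.4304 (padj = 0.0229), reversing its sign, and Homer1 lost its call at 0.5785 (padj = 0.0376), 0.5483 (padj = 0.0194) and 0.4716 (padj = 0.0885). The cause was not tested. The Dlg3 to Dlg2 difference, -0.65 as reported, was -0.2529, -0.365 and -0.1422 with length, GC and both trends removed. It was -0.5524 with the canonical length trend removed. For this ratio all of these settings were also added after the data were seen. Dlgap3 relative to the median of the neuronal markers was 0.2578 in place of -0.03, with neither passing, and the cause was not tested. Over all genes, 1746 were lower and 5449 higher with library totals, where the median of all genes was 0.21, against 3058 and 4237 as reported, 3573 higher and 3891 lower by DESeq2 on quantile-normalized counts, and 4999 lower without the fold threshold.

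Leaving out each library in turn gave 7 scaffolds higher and 0 lower each time, with a median between 1.6164 and 1.9813, and 3825 to 4673 genes higher and 2615 to 3592 lower overall. The Dlg4 to Dlg2 difference lay between -2.72 and -2.09, Dlg4 to Dlg3 between -1.92 and -1.52, and Shank1 to Shank3 between 0.35 and 0.43, given without a test.

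With the replicate number as a block, 4112 genes were higher and 3130 lower, and the 7 scaffolds kept their calls. The numbers did not pair the samples (correlations of deviations 0.271, 0.143, 0.0778 and -0.348), and only number 1 correlated best with its own. After thinning to the smallest library, 7 scaffolds were called higher as well, beside 25.3% of all tested genes.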
